A study of Homo sapiens with 6 samples.

Results

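The matrix metalloproteinases (MMPs) are zinc-dependent enzymes that cut collagen and other proteins of the extracellular matrix, and the tissue inhibitors of metalloproteinases (TIMPs) are small secreted proteins that block their active site. Of the 17100 transcripts in the deposited table, 10 belonged to the group described here: the collagenases MMP1 and MMP13, the gelatinases MMP2 and MMP9, the stromelysins MMP3 and MMP10, the membrane-type enzyme MMP14, and the inhibitors TIMP1, TIMP2 and TIMP3. The members were taken by symbol and were chosen by their known function together with their counts in these same libraries, so that the differences between treatments given for them are descriptions and not tests. RNA was sequenced from MDA-MB-231, an established human triple-negative breast cancer cell line, after vehicle or after 1 µM guadecitabine (SGI-110) for 96 h and a further 24 h without drug, in 3 libraries each, from separate experiments according to the methods of the study. Guadecitabine, a prodrug of decitabine, blocks DNA methyltransferases, and all libraries came from the same line grown in the same medium.

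MMPs are made as inactive proenzymes, and most are secreted. MMP1 and MMP13 cleave fibrillar collagen, MMP2 and MMP9 degrade denatured collagen and basement membrane collagen, and MMP3 and MMP10 have a broad range of substrates and can activate other proenzymes. MMP14 is anchored in the plasma membrane, where it activates the MMP2 proenzyme with the help of TIMP2, and these enzymes are widely studied in the invasion of breast cancer cells.

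Library totals ranged from 8792127 counts in guadecitabine replicate 2 to 22277442 in vehicle replicate 3. Vehicle replicate 3 stood apart, with 20 transcripts at 0 counts against 1593 to 2517 in the other libraries. Among 2034 genes at 0 counts in vehicle replicates 1 and 2, the median in this library was 7.71 counts per kb of exon (quartiles 5.43 and 11.1). Fold changes of the members with low counts that were tested are also given without this library. The identity of the cells was checked by markers. The mesenchymal genes VIM, CD44, CAV1 and AXL together had 52359 to 53710 reads per kb after vehicle and 56110 to 65346 after guadecitabine, most of it from VIM. Within the list CD44 was at 2776 to 3231 and 6789 to 7209 reads per kb, CAV1 at 6831 to 7468 and 2698 to 3683, and AXL at 4465 to 5542 and 1950 to 2272. The list of 6 epithelial or hormone receptor markers had 2870 to 3430 reads per kb after vehicle and 1876 to 2413 after guadecitabine and was not absent as a whole, since CLDN4 had 1862 to 5511 counts, ERBB2 552 to 1974, EPCAM 90 to 466 and CDH1 6 to 87. The estrogen receptor gene ESR1 and the progesterone receptor gene PGR had at most 1 count outside vehicle replicate 3, which had 67 and 43. In such bulk samples, fewer cells that make an RNA and less RNA per cell cannot be told apart.

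Apart from MMP14, the MMP genes of this group had at most 123 counts in any vehicle library. In the edgeR fit across 13322 genes, 9 members passed the filter on low counts, of which MMP1, MMP2 and MMP9 rose and TIMP2 and TIMP3 fell at an adjusted p of 0.05. Of all genes tested, 19.3% were called higher and 18.4% lower. Without vehicle replicate 3, 6 members were called higher and 3 lower, against 22.6% and 19.4% of all genes, with MMP3, MMP13 and TIMP1 added among the higher and MMP14 among the lower. The median log2 fold change of the 9 members was 1.50, beside 0.02 over all genes tested. It is a description, since the members were chosen with these counts known. MMP9 and MMP3 also passed the filter only through their guadecitabine libraries, whereas MMP10 did not pass it, which favours a positive median. This median was the value of MMP3 and was not stable, with 2.78 without vehicle replicate 3, 0.93 without guadecitabine replicate 1 (8 members tested), 0.96 with no filter (10 members) and -0.23 with at least 10 counts in every library (5 members).

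**Figure D1:**
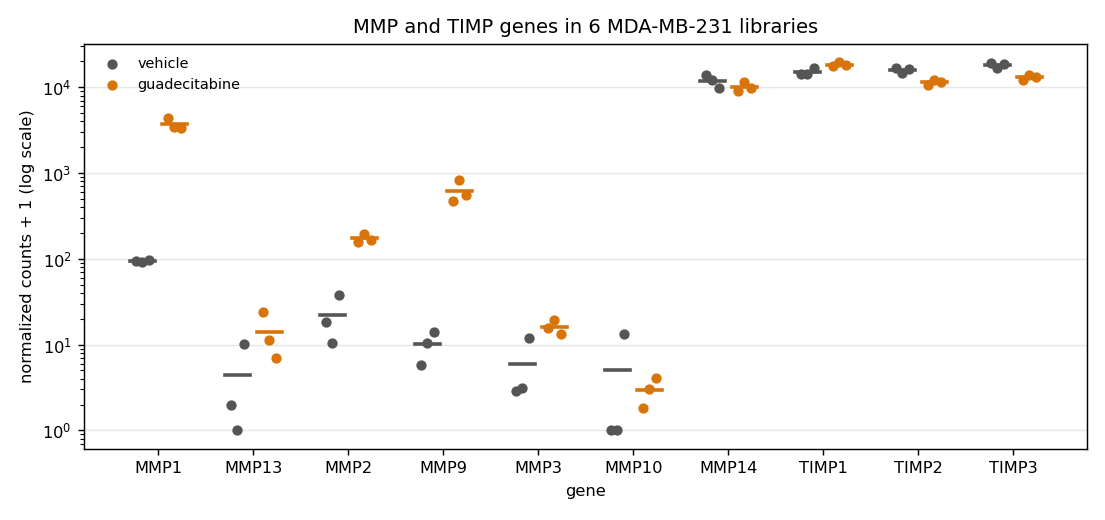
Normalized counts plus 1 (log scale) of the 10 genes in each of the 3 vehicle (grey) and 3 guadecitabine (orange) libraries, with points for libraries and lines for group means. MMP1, MMP2 and MMP9 lie apart between the groups, while MMP14 and the TIMP genes lie close together between 9100 and 19508 normalized counts in every library.

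The upstream sequence of MMP10, MMP14, TIMP1 and TIMP3 was taken from RefSeq (build GRCh38.p14). Those of MMP1, MMP2, MMP3, MMP9, MMP13 and TIMP2 were not used here. The 150 bases before the start site are shown on the strand of the gene, since CpG sites are what DNA methyltransferases act on, and capitals mark CpG sites. The RefSeq windows, of 250 bases before the start and 50 after it, are chr11:102780579-102780878 (minus strand) for MMP10, chr14:22836335-22836634 (plus) for MMP14, chrX:47582186-47582485 (plus) for TIMP1 and chr22:32801455-32801754 (plus) for TIMP3. This build is not that of the count table, which is hg19.
MMP10: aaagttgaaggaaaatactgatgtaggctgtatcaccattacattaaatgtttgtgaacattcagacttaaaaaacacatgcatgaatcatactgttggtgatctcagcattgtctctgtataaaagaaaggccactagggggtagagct
MMP14: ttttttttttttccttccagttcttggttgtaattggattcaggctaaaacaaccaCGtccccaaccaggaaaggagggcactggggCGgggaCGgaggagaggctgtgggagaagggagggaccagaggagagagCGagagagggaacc
TIMP1: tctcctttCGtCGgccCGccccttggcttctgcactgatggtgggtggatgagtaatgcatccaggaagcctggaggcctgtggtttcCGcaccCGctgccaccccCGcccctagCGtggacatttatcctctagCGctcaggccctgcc
TIMP3: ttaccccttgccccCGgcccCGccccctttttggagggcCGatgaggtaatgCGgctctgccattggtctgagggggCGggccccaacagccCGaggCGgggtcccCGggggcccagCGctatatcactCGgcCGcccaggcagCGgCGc

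The stretch of MMP10, a gene that was almost silent here, held 0 CpG sites, and those of MMP14, TIMP1 and TIMP3, which were highly expressed with and without the drug, held 4, 8 and 13. Over the full 250 bases upstream, MMP10 had 2 CpG sites, and 22.9% of the 35116 RefSeq promoters had as few. MMP14 had 7 sites and TIMP1 had 12, around the median of 11, whereas TIMP3 had 26, a number that 19.6% of promoters reached. The letters TATAAA occurred between -40 and -16 on the strand of the gene in MMP10 alone among these 4, as in 2.295% of all promoters. The AP-1 letters TGAGTCA, or TGACTCA on the other strand, were in none of the 4 and in 4.20% of all promoters. Exact letters alone were searched, so that variants of an AP-1 site were not counted. DNA methylation was not analysed here, and a link between CpG number and expression was not tested.

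MMP1, the interstitial collagenase, had 97, 87 and 123 counts in vehicle replicates 1, 2 and 3 and 5365, 1682 and 3351 counts in guadecitabine replicates 1, 2 and 3. The vehicle libraries were close to each other after normalization, with 93.2 ± 1.68 normalized counts (SD, n = 3), and all guadecitabine libraries were far above them, with 3722 ± 544. The log2 fold change was 5.32 ± 0.15 (standard error), or 39.9-fold. The deposited regularized log2 values, which pull low counts together, gave a difference of 3.89. By reads per kb, MMP1 went from rank 9294 to 9484 of 17100 transcripts in the vehicle libraries to rank 668 to 1004 after guadecitabine.

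MMP9, a gelatinase of basement membrane collagen on chromosome 20 (hg19, 44637547 to 44645200, plus strand, 13 exons), had 5, 9 and 17 counts in the vehicle libraries and 580, 405 and 552 in the guadecitabine libraries. Normalized counts were 9.14 ± 4.20 and 618 ± 185 (SD, n = 3), and the log2 fold change was 6.01 ± 0.33 (standard error), or 64.5-fold. The deposited log2 values gave 2.23. The highest vehicle library was replicate 3, with 7.28 counts per kb, close to the median of that library over genes silent in the other vehicle libraries. Without it the log2 fold change was 6.41.

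MMP2, the other gelatinase, on chromosome 16 (55512742 to 55540603, plus strand, 13 exons), had 18, 9 and 48 counts after vehicle and 195, 95 and 164 after guadecitabine. Normalized counts were 21.3 ± 14.3 and 173 ± 18.7 (SD, n = 3), and the log2 fold change was 2.96 ± 0.40 (standard error), or 7.80-fold. The groups did not overlap, although vehicle replicate 3 had the most reads of its group, at 14.9 counts per kb, above the upper quartile of its silent genes. Without this library the log2 fold change was 3.65, and the deposited log2 values gave 0.67. With at least 10 counts required in every library, MMP2 and MMP9 were not tested, because both had vehicle libraries below that number.

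MMP3, MMP10 and MMP13 stayed below 30 counts in every library. MMP3, stromelysin-1, had 2, 2 and 14 counts after vehicle and 18, 9 and 12 after guadecitabine. Its log2 fold change was 1.50 (standard error 0.79), which did not pass the threshold, and 2.78 without vehicle replicate 3, where it did. MMP13, collagenase-3, had 1, 0 and 12 counts after vehicle and 28, 5 and 6 after guadecitabine, with overlapping groups and a log2 fold change of 1.83 (standard error 1.07). Without vehicle replicate 3 this was 4.47 and passed the threshold. Guadecitabine replicate 1 was the highest library of MMP13, with 22.7 normalized counts against 10.2 and 6.07 in replicates 2 and 3.

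MMP10, stromelysin-2, had 0, 0 and 16 counts after vehicle and 1, 1 and 3 after guadecitabine, did not pass the filter and was not tested. In 5 of the 6 libraries it was at or under 3 counts, so that a difference was not detectable at this depth. In vehicle replicate 3, MMP10, MMP3 and MMP13 had 9.10, 7.66 and 4.41 counts per kb, of which the first and second lay between the quartiles of the genes silent in the other vehicle libraries and the value of MMP13 below the lower quartile. What gave vehicle replicate 3 these counts was not tested. MMP3 and MMP10 also shared 59 stretches of 50 bases, 3.33% and 3.45% of their transcripts, so that single reads could be assigned to either gene.

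On chromosome 11, MMP1, MMP3, MMP10 and MMP13 lie in a cluster of 9 MMP genes on hg19 from 102391239 to 102826463, a span of 435225 bp with no other gene of the table. MMP1, at 102660641 to 102668966 on the minus strand with 10 exons, lies between MMP10, which ends 9281 bp before it, and MMP3, which begins 37561 bp after it. After guadecitabine MMP1 had 1853 to 2380 reads per kb in the 3 libraries, while MMP3 had 6.64 to 10.03 and MMP10 had 0.461 to 1.72. The other genes of the cluster, MMP7, MMP8, MMP12, MMP20 and MMP27, had 0 to 8 counts in each guadecitabine library and 0 to 5 in vehicle replicates 1 and 2. In vehicle replicate 3 these 5 genes had 9 to 35 counts. MMP1 was therefore the single gene of the cluster with more than 35 counts in any library, and it had at least 87 in each. The neighbours on either side of the cluster, TMEM123 and DCUN1D5, had 1537 to 1952 and 87.8 to 157 reads per kb over all libraries.

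**Figure D2:**
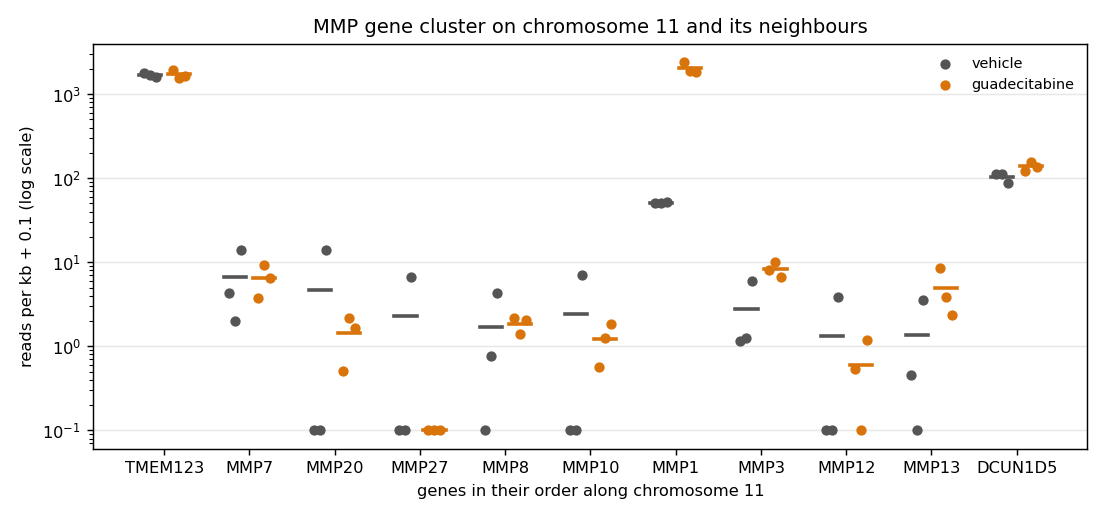
Reads per kb plus 0.1 (log scale) of the 9 MMP genes on chromosome 11 and of the genes next to them, in chromosome order, with points for libraries (vehicle grey, guadecitabine orange) and lines for group means. MMP1 rises from about 51.0 to 2036 reads per kb, while the genes around it within the cluster stay below 14 reads per kb in every library.

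Annotated genes on the other strand lie across some of these exons. In the exons of the GENCODE canonical transcripts, the pseudogene WTAPP1 covered 150 of the 1971 bp of MMP1 (7.61%). The antisense gene SLC12A5-AS1 covered 430 of the 2336 bp of MMP9 (18.4%). A noncoding gene covered 367 of the 3652 bp of TIMP2 exons, and a transcript on the same strand covered 174 of the 3514 bp of MMP2 exons. The exon lengths used for counting were 1828, 2336, 3655 and 3215 bp for MMP1, MMP9, TIMP2 and MMP2. Without a stated strand, reads from the overlaps on opposite strands cannot be told apart. For the same-strand overlap of MMP2, a stated strand would not separate them. MMP13, MMP14, TIMP1 and TIMP3 shared 0 stretches of 50 bases with other genes. TIMP1 lies on chromosome X (47441690 to 47446190) within SYN1, and TIMP3 on chromosome 22 (33196802 to 33259028) within SYN3, with 0 bp of exon overlap.

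MMP14, the membrane-type enzyme on chromosome 14 (23305742 to 23316808, plus strand, 10 exons), was the most highly expressed MMP gene of the group in each library. It had 14540, 11581 and 12668 counts after vehicle and 11223, 5687 and 9765 after guadecitabine, or 11971 ± 2049 and 10188 ± 1275 normalized counts (SD, n = 3). The groups overlapped, since vehicle replicate 3 was below guadecitabine replicates 2 and 3 in normalized counts. The log2 fold change of -0.23 (standard error 0.15) did not pass the threshold. Without vehicle replicate 3 it was -0.36 and passed.

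TIMP1, an inhibitor of most secreted MMPs, had 14779, 13642 and 21889 counts after vehicle and 21546, 9571 and 18091 after guadecitabine. In normalized counts each guadecitabine library was above each vehicle library, with 18423 ± 1025 against 15151 ± 1550 (SD, n = 3). The log2 fold change was 0.28 (standard error 0.10) and did not pass the threshold in edgeR. It passed it in DESeq2 and, with a value of 0.37, without vehicle replicate 3.

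TIMP2, on chromosome 17 (76849059 to 76921472, minus strand), takes part in activating the MMP2 proenzyme as well as inhibiting MMPs. It fell from 15942 ± 1105 to 11438 ± 664 normalized counts (SD, n = 3). The counts were 17736, 13940 and 20906 after vehicle and 13240, 5915 and 11396 after guadecitabine, and each guadecitabine library was below each vehicle library after normalization. The log2 fold change was -0.48 (standard error 0.10), a level 28.3% lower. TIMP3, the inhibitor that binds to the extracellular matrix and also blocks ADAM proteinases, had 19943, 15943 and 23881 counts after vehicle and 15012, 6823 and 13006 after guadecitabine. It fell from 18117 ± 1123 to 13076 ± 869 normalized counts (SD, n = 3), again with no overlap between groups. Its log2 fold change of -0.47 (standard error 0.10), a level 27.8% lower, was close to that of TIMP2.

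Levels were then compared between genes per kb of exon. After vehicle TIMP1 was highest, with 16540 ± 1692 reads per kb (SD, n = 3), followed by TIMP2 with 4362 ± 302. MMP14, with 3331 ± 570, and TIMP3, with 3302 ± 205, overlapped in their ranges. MMP1 followed with 51.0 ± 0.919, and MMP2, MMP9, MMP3, MMP10 and MMP13 had means of 1.25 to 6.62 and each overlapped its neighbour in this order. These means rested in part on vehicle replicate 3, and without it MMP2, MMP9, MMP3, MMP13 and MMP10 had 4.11, 3.03, 1.09, 0.174 and 0 reads per kb. After guadecitabine TIMP1 again led, with 20112 ± 1119. TIMP2, MMP14, TIMP3 and MMP1, with means of 3129, 2835, 2384 and 2036, each overlapped the next. MMP9 with 265 ± 79.2 and MMP2 with 53.7 ± 5.81 were separate from their neighbours, and MMP3, MMP13 and MMP10 had means of 8.22, 4.78 and 1.11.

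The summed level of the 7 MMP genes was 3918, 3466 and 2812 reads per kb in vehicle replicates 1, 2 and 3 and 5179, 5529 and 4902 in guadecitabine replicates 1, 2 and 3. Its make-up differed as well. MMP14 contributed 97.9 ± 0.837% of the MMP sum after vehicle and 54.4 ± 4.93% after guadecitabine (SD, n = 3), whereas MMP1 contributed 1.53 ± 0.288% and 39.2 ± 6.14%. MMP9 contributed 0.123 ± 0.0742% and 5.05 ± 1.26%. The summed level of the 3 TIMP genes was 24204 ± 1819 after vehicle and 25625 ± 1454 after guadecitabine, with overlapping libraries. Within that sum TIMP1 went from 68.3 ± 2.47% to 78.5 ± 0.233%. The ratio of the TIMP sum to the MMP sum was 5.99, 6.59 and 9.34 after vehicle and 4.68, 4.91 and 5.21 after guadecitabine. The highest value was in vehicle replicate 3. Among the vehicle libraries, this one had the lowest MMP14 level and the highest TIMP sum, with 2726 and 26273 reads per kb. These are transcript levels, and protein and enzyme activity were not measured.

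**Figure D3:**
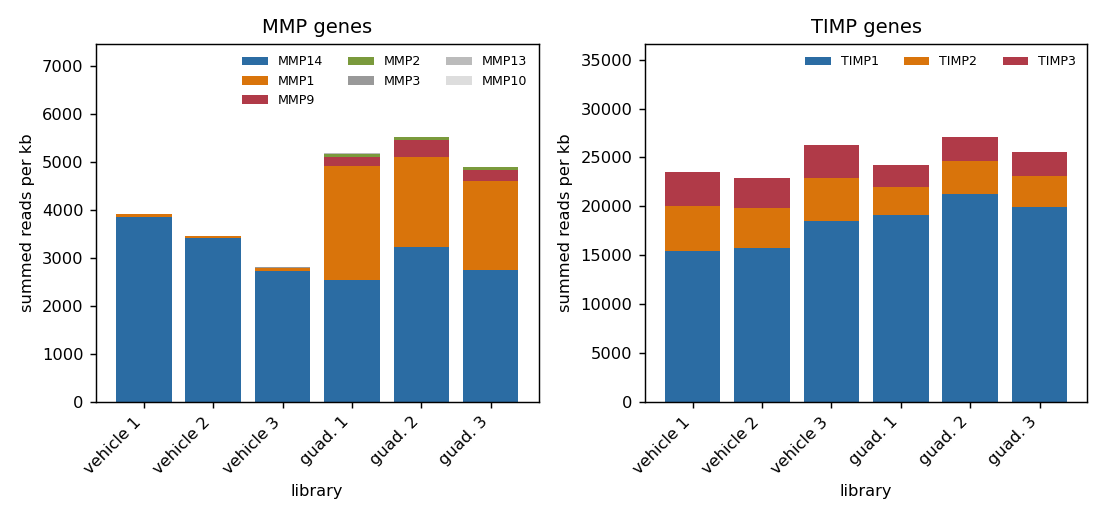
Stacked bars of reads per kb in each library, for the 7 MMP genes (left) and the 3 TIMP genes (right), with 1 color per gene. The MMP sum is almost all MMP14 in the vehicle libraries, and MMP1 and MMP9 make up the added part after guadecitabine, while the TIMP sums of the groups overlap.

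Several of these genes are also made by fibroblasts and leukocytes, so that markers of such cells were examined in the same libraries. The summed level of 5 fibroblast markers was 30.5 to 94.0 reads per kb after vehicle and 316 to 421 after guadecitabine, where the collagen gene COL1A1 had 298 to 393 reads per kb of it, with 132 to 380 counts after vehicle and 1143 to 2175 after guadecitabine. The proteoglycan gene DCN had 0, 0 and 24 counts and COL3A1 2, 4 and 108 in vehicle replicates 1, 2 and 3. After guadecitabine they had 2 to 4 and 0 to 5. The other markers of the list, LUM and PDGFRA, had 21, 7 and 38 and 3, 1 and 61 counts in vehicle replicates 1, 2 and 3, and 36, 23 and 33 and 28, 7 and 20 in guadecitabine replicates 1, 2 and 3. Of the 6 leukocyte markers, 5 were in the table, with a summed level of 173 to 214 reads per kb after vehicle and 146 to 165 after guadecitabine, and the pan-leukocyte gene PTPRC had 0 to 3 counts in each library but vehicle replicate 3, which had 36. Most of the leukocyte sum came from CD14, at 90.7 to 130 reads per kb after vehicle and 108 to 121 after guadecitabine, and from CSF1R, at 62.0 to 65.0 and 24.4 to 26.4. LYZ and AIF1 had 13 to 28 and 0 to 11 counts over all libraries. The 4 endothelial markers had 23.0 to 42.7 reads per kb after vehicle and 46.1 to 58.8 after guadecitabine, of which KDR had 10.7 to 16.2 and 25.7 to 33.2 and PECAM1 had 11.8 to 17.4 and 17.9 to 23.6. The VE-cadherin gene CDH5 had 0, 0 and 18 counts and VWF 5, 4 and 66 in vehicle replicates 1, 2 and 3. After guadecitabine they had 2 to 4 and 9 to 11. The part of such cells in the differences of the MMP and TIMP genes was not tested.

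The rest of the metalloproteinase system was listed by role, with 89 genes in 9 lists, of which 87 were in the table and 58 were tested. By edgeR, with the same threshold, 21 of the 58 were higher and 11 lower, beside 19.3% and 18.4% of all genes tested, with a median log2 fold change of 0.11. These lists were chosen with earlier results of these data known. Their calls and adjusted p-values, here and below, are therefore descriptions. Of the 11 other secreted MMPs, 9 were in the table and 3 were tested, with 0 higher and 1 lower. The lower gene was MMP11, stromelysin-3, which fell from 109 ± 6.60 to 28.3 ± 2.31 normalized counts (SD, n = 3; log2 fold change -1.95, adjusted p = 0.000377 from edgeR). Of the 5 other membrane-type MMPs, 1 rose and 1 fell. MMP17 rose from 71.8 ± 11.9 to 149 ± 25.3 normalized counts (log2 fold change 1.04, adjusted p = 0.00507 from edgeR), and MMP24 fell from 185 ± 34.8 to 101 ± 13.8 (-0.86, adjusted p = 0.00846 from edgeR).

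Of 4 other inhibitors, 3 were tested, and all of these passed the threshold, beside 19.3% higher and 18.4% lower of all genes tested. TFPI2, a secreted inhibitor of serine proteinases with reported activity on MMPs, rose from 1702 ± 129 to 15853 ± 712 normalized counts (SD, n = 3; log2 fold change 3.22, adjusted p = 1.21e-07 from edgeR). RECK, a membrane-anchored MMP inhibitor, fell from 203 ± 37.9 to 110 ± 30.1 (log2 fold change -0.86, adjusted p = 0.0152 from edgeR). TIMP4, the fourth TIMP gene, fell from 102 ± 16.7 to 64.7 ± 4.05 (-0.66, adjusted p = 0.0448 from edgeR), a call that was lost in DESeq2, with the replicate block, with library totals and without any single library, with adjusted p between 0.0544 and 0.119 from edgeR or DESeq2.

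Genes that activate MMP proenzymes or act with them at the cell surface rose in 5 and fell in 1 of 8 tested. Beside them, 19.3% of all genes tested were higher and 18.4% lower. CD44, a hyaluronan receptor that docks MMP9 at the surface, rose by 1.18 on the log2 scale (adjusted p = 2.66e-05 from edgeR). PLAUR, the urokinase receptor, had 1.17, and PLAT, the tissue plasminogen activator that makes plasmin, had 1.14. LRP1, an endocytic receptor that clears MMPs and TIMPs, fell with a change of -0.93 in log2 units (adjusted p = 0.000715 from edgeR).

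**Figure D4:**
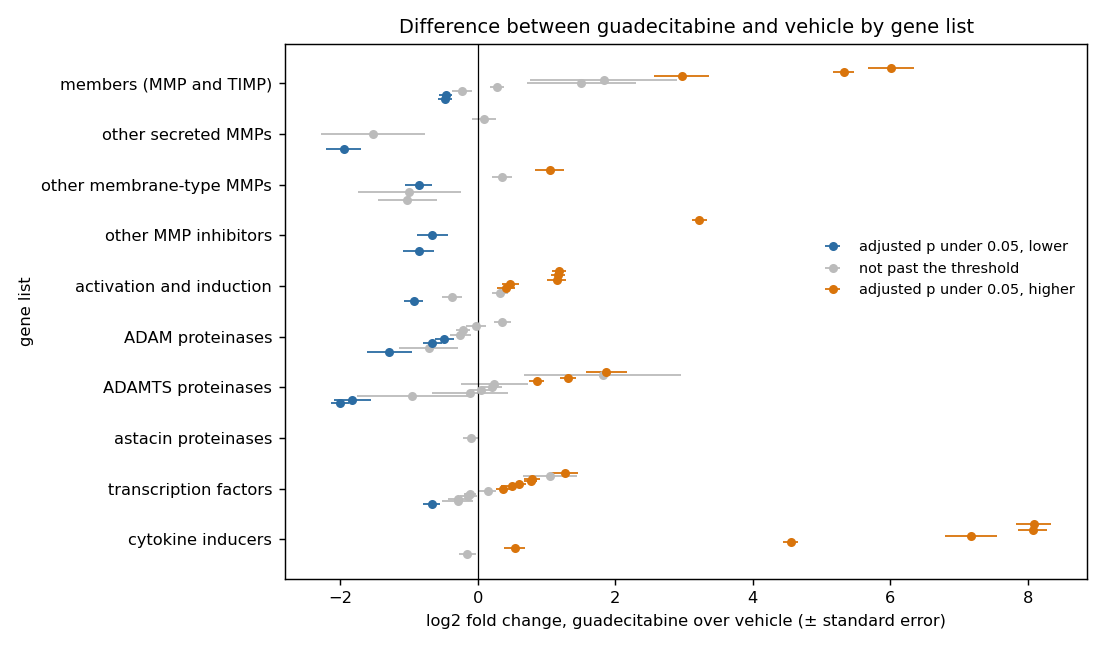
Log2 fold change of guadecitabine over vehicle with its standard error for the 9 members tested and for 58 genes of the metalloproteinase system by list, colored by the edgeR call at an adjusted p of 0.05. MMP1, MMP2 and MMP9 lie between 2.96 and 6.01, above the genes of the other proteinase lists, and the largest values of all are those of IL1B, IL1A and TNF.

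The cytokines that induce MMP genes in many cell types were higher in 5 of 6 tested, with 0 lower. Over all genes tested, 19.3% were higher and 18.4% lower. IL1B rose from 30.6 ± 12.4 to 8561 ± 1141 normalized counts (SD, n = 3; log2 fold change 8.08, adjusted p = 8.60e-08 from edgeR). IL1A and TNF had log2 fold changes of 8.07 and 7.17. Of 13 transcription factors known to act at MMP promoters, 6 rose and 1 fell, beside the same shares of all genes. JUNB, an AP-1 subunit, rose by 1.26 on the log2 scale (adjusted p = 0.00103 from edgeR), ETS1 had 0.79 and NFKB1 had 0.77, whereas RUNX2, a regulator of MMP13 in bone, fell with a log2 fold change of -0.67. The other AP-1 genes of this list were named after their values were seen. Among them JUND was also called higher, at 0.50 in log2 units. FOSB at 1.05, FOSL1 at -0.12, FOSL2 at -0.14, JUN at -0.28 and FOS at -0.29 did not pass the threshold.

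Related proteinases outside the MMP family moved in both directions, as did all genes tested, with 19.3% called higher and 18.4% lower. Of 8 ADAM genes tested, 0 rose and 3 fell (37.5% called). ADAM28 fell with a change of -1.29 in log2 units (adjusted p = 0.0132 from edgeR), ADAM10, a major sheddase, with -0.66, and ADAM9 with -0.49. Of 11 ADAMTS genes tested, 3 rose and 2 fell (45.5% called). ADAMTS6, ADAMTS9 and ADAMTS12 had log2 fold changes of 1.87, 1.31 and 0.86. ADAMTS15, a proteoglycan-cleaving enzyme, fell from 2415 ± 366 to 601 ± 32.2 normalized counts (SD, n = 3; log2 fold change -2.01, adjusted p = 8.59e-06 from edgeR), and ADAMTS14, which trims procollagen, had a log2 fold change of -1.83. Of 6 astacin proteinases, BMP1 was the 1 gene tested, with a change of -0.10 in log2 units (adjusted p = 0.547 from edgeR).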

How the data were processed

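RNA sequencing of MDA-MB-231 cells was analysed from 3 vehicle and 3 guadecitabine libraries, grouped and numbered by their titles. The authors aligned reads to hg19 with STAR 2.3.1z, per the labels, and deposited raw counts of reads in exons of 17100 RefSeq transcripts (iRNA-seq). Beside them the authors deposited regularized log2 values from DESeq2, found here to be lowered by the log2 of the exon length in kb, and the counted exon length in bp was in the same table. Strandedness and the handling of multi-mapped reads are not given in the sources used here. The authors' own comparison (fold changes and p-values) was not used.

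The main test used edgeR 4.0.16 (R 4.3.3) on the counts (TMM, filterByExpr with a minimum count of 10, quasi-likelihood test, Benjamini-Hochberg adjustment over all 13322 genes kept, threshold 0.05), after the fit was tested on simulated counts. Standard errors were derived from the F statistic. Normalized counts were scaled to a mean library of 17937628 reads, and reads per kb are normalized counts per kb of counted exon. The alternatives were a replicate block, DESeq2 1.42.0, its size factors, library totals, other filters, and each library left out. Overlaps came from GENCODE release 44 on GRCh37, and promoters from RefSeq. Starts in the table count from 0, and 1 was added.

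Members and gene lists were chosen with earlier results of these data known. The text names all members, the up to 3 genes per list with the largest rise and fall past the threshold, and the neighbours of the MMP cluster. Other genes named were chosen after their values were seen. Protein sequences were not used here.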

Additional observations from a re-analysis of the deposited data

How the results depend on the processing

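The calls of MMP1, TIMP2 and TIMP3 were made under all alternatives run, and those of MMP2 and MMP9 under all but the filter of at least 10 counts in every library, which left 1 member called higher. With the replicate number as a block, 3 members were called higher and 2 lower, with 2424 genes higher and 2230 lower in all and 20 and 10 in the role lists. Same-numbered libraries had correlations of -0.03, 0.03 and -0.03 of their deviations across genes, and no library of guadecitabine correlated best with the vehicle library of its number except replicate 2. With each library left out in turn, members called higher ranged from 3 to 6, genes called higher from 1706 (without guadecitabine replicate 3) to 3002 (without vehicle replicate 3), and genes called lower from 1629 to 2575 (without the same libraries). Genes of the role lists called higher ranged from 16 to 23. ADAM9 was not called without vehicle replicate 1 or 2 or guadecitabine replicate 2 or 3, with adjusted p between 0.0679 and 0.0998. The regularized log2 values, with no test, gave 0.05 for both MMP3 and MMP13, in place of 1.50 and 1.83. Depth limits MMP3, MMP10 and MMP13, whose counts below 30 have a large relative counting error. Reads are also not independent molecules.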
